A study of Homo sapiens with 15 samples.

Results

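The genes described here are 10 products of, or brakes on, JAK-STAT signalling: SOCS1, SOCS2, SOCS3, SOCS4, SOCS5, SOCS6, CISH, PIM1, PIM2 and PTPN2. They were found in the array table through their gene symbols, and all 10 of the 10 listed genes were measured, out of 19775 genes in all. Together they had 31 of the 41091 probe sets (groups of short probes for a transcript) that carry exactly 1 symbol, and for each gene the probe set that was brightest on average over the 15 arrays was taken. Total RNA of cell lines, for which the labels name no treatment, was hybridised to Affymetrix U133 Plus 2.0 arrays. A total of 10 arrays came from 6 classical Hodgkin lymphoma lines: L428, L1236, KM-H2 and HDLM2 with 2 arrays each, and L540 and its subline L540Cy with 1 each. The other 5 arrays came from 3 non-Hodgkin lines: Namalwa (Burkitt lymphoma) and Reh (B acute lymphoblastic leukaemia) with 2 each, and SU-DHL-4 (a non-Hodgkin lymphoma of B cells) with 1. From background knowledge, L428, L1236 and KM-H2 derive from B cells and HDLM2 and L540 from T cells, and each line grew from the tumour of a single patient, so the number of lines, not of arrays, limits what holds for a disease.

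Cytokines bind receptors that carry JAK kinases, which phosphorylate STAT transcription factors, and phosphorylated STAT dimers switch on target genes. Among those targets are the genes for some SOCS proteins, such as SOCS1, SOCS2 and SOCS3, and for CIS (the product of CISH). These proteins bind the receptor or the kinase through an SH2 domain and recruit a ubiquitin ligase through their SOCS box, and so close a feedback loop. PIM1 and PIM2 are survival kinases whose genes are also STAT targets, and PTPN2 is a phosphatase that removes phosphate from JAKs and STATs. Persistent JAK-STAT activity is a known trait of the tumour cells of classical Hodgkin lymphoma.

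Values are the authors' log2 signals from RMA, a method that corrects background, normalizes the arrays to each other and sums the probes of a set. On this scale a step of 1 is a doubling, and small signals are compressed, so the fold of a gene that is dim in some lines is understated. The arrays were normalized to like medians, from 5.50 to 5.57, with the lowest upper quartile, 7.31, in Namalwa replicate 2. Over all genes the difference between the arrays of a line had an SD of 0.24 to 0.36 in the Hodgkin duplicates, 0.52 in Namalwa and 0.62 in Reh. The array labelled Reh replicate 1 stood apart: 22 genes that SU-DHL-4 showed over 3 log2 above every other array, Reh replicate 1 set aside, were all higher in Reh replicate 1 than in Reh replicate 2. Of the 10 genes described here, 3 (SOCS1, SOCS2 and SOCS6) differed by over 1 log2 between the 2 Reh arrays. In each of them Reh replicate 1 lay on the SU-DHL-4 side of Reh replicate 2. Averages of markers separated the classes. The 6 measured B cell markers averaged 10.16 to 11.32 in the non-Hodgkin lines and 5.56 to 6.43 in the Hodgkin lines. The 7 Hodgkin cell markers averaged 8.54 to 11.72 in the Hodgkin lines and 5.89 to 6.47 in the others. Single markers did not all do so. By line mean, PAX5 was at 10.81 in L1236 and 10.78 in SU-DHL-4, and EBF1 at 8.73 in KM-H2 and 8.83 in HDLM2. Of the Hodgkin cell markers, CCL22 was at 11.94 in HDLM2 but at 5.99 to 7.59 in the other Hodgkin lines. IL21R was at 8.98 in SU-DHL-4. Within Reh the arrays disagreed in markers singled out after their values were seen. MS4A1, which encodes the B cell antigen CD20, stood at 11.47 in replicate 1 against 4.12 in replicate 2, with SU-DHL-4 at 12.48. The kinase gene LCK was at 10.39, 6.42 and 11.59 in the same arrays. CD79A, a part of the B cell receptor, was at 12.25, 12.16 and 12.72. Values of Reh below are those of the arrays so labelled. By line mean, at most 2 of 8 T cell markers and at most 1 of 6 myeloid markers exceeded 8 log2. The T cell markers did not follow the known origin of the Hodgkin lines throughout. KM-H2, known as B cell derived, had 2 over 8 log2, CD4 at 10.1 and CD3D at 8.6. HDLM2 had CD2 at 10.75, L540 and L540Cy had CD4 at 10.51 and 10.53, and L428 and L1236 had 0. RNA from fewer expressing cells and less RNA per cell cannot be told apart in such bulk samples.

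The first comparison asked which of the 10 genes separate Hodgkin from non-Hodgkin lines. SOCS1 and SOCS3 were higher in the Hodgkin lines, and no gene of the group was lower. CISH was high in every Hodgkin line except KM-H2. Like CISH, the other 7 genes did not pass the test between the classes. Arrays were averaged per line, and L540 with L540Cy, which left 5 Hodgkin against 3 non-Hodgkin lines, tested with limma across all genes at a Benjamini-Hochberg adjusted p of 0.05. At that threshold 2 of the 10 were called, both higher in Hodgkin lines, where 1.37% of all genes were called, 0.759% as higher and 0.612% as lower. At an unadjusted p under 0.05 there were 4 of the 10 (SOCS1, SOCS3, CISH and PIM2), beside 14.2% of all genes. The median difference of the 10 was 0.95 log2, beside -0.02 log2 over all genes.

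**Figure D1:**
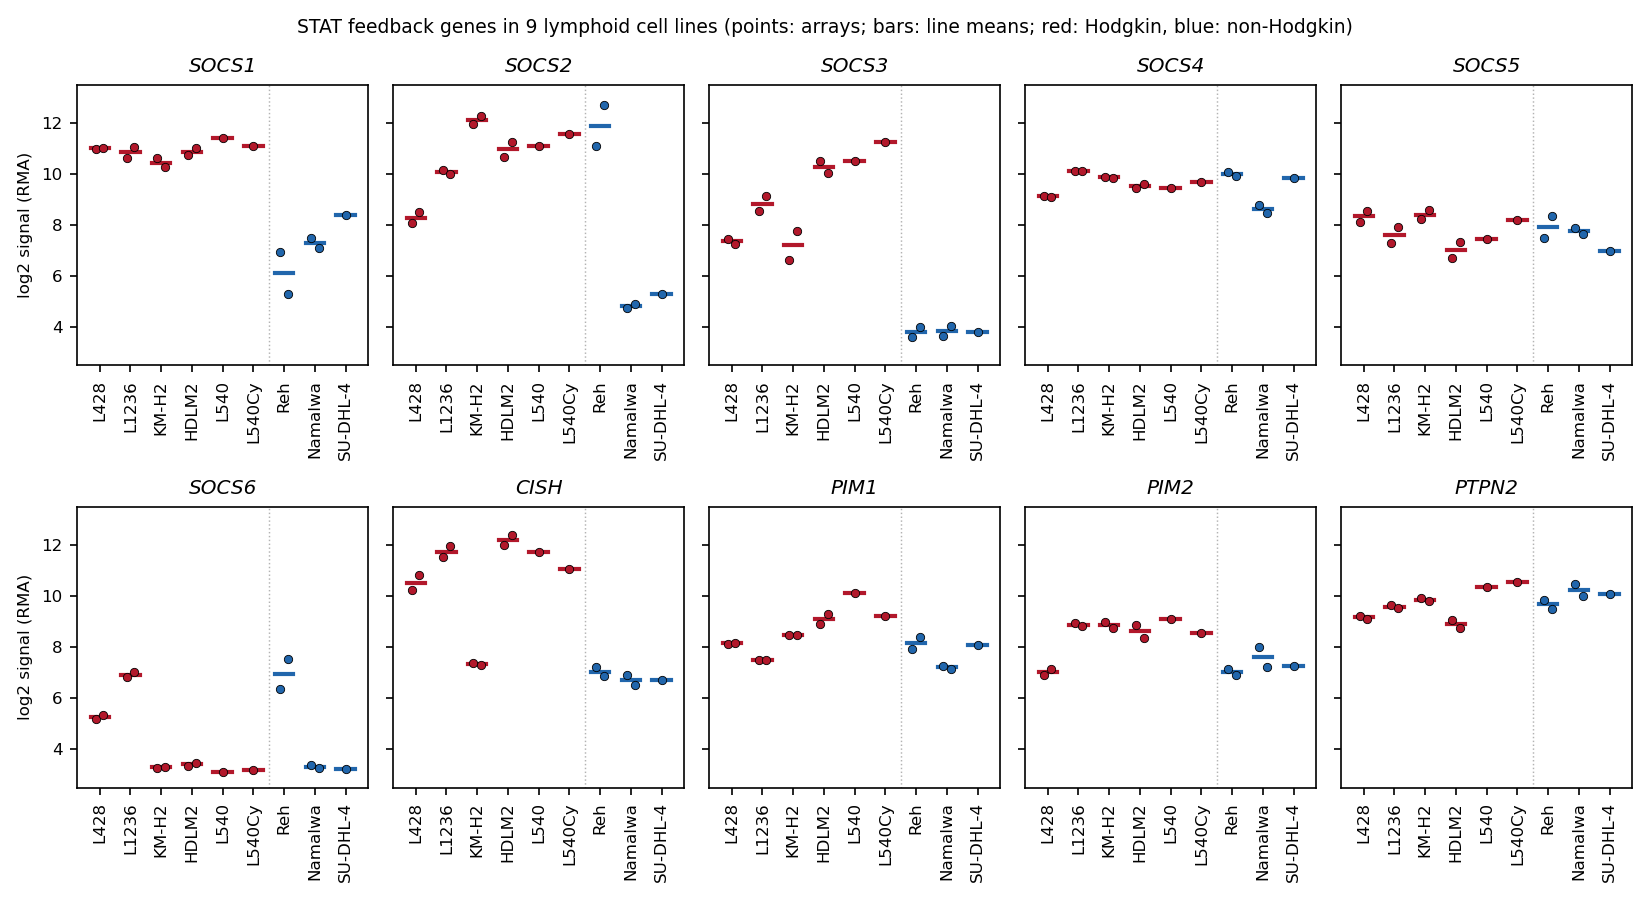
Log2 signal (y axis) of each of the 10 genes in 9 cell lines (x axis), 1 point per array, with a bar at the line mean, Hodgkin lines in red left of the dotted line and non-Hodgkin lines in blue right of it. SOCS1 and SOCS3 separate the classes, CISH does so by a narrow margin because KM-H2 lies at 7.35, and SOCS2 and SOCS6 are high in Reh.

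SOCS1, an inhibitor that blocks the catalytic site of JAK kinases, had the smallest SD of the 10 among Hodgkin lines. Its 10 Hodgkin arrays ran from 10.27 over a median of 10.99 to 11.40. The non-Hodgkin arrays stood at 6.93 and 5.31 in Reh, 7.51 and 7.09 in Namalwa and 8.38 in SU-DHL-4, so that the lowest Hodgkin array exceeded the highest non-Hodgkin array. The difference was 3.61 ± 0.46 log2 (SE, 5 lines against 3, adjusted p = 0.0159), or 12.2-fold, from 7.27 ± 1.13 (SD, n = 3) to 10.88 ± 0.29 (SD, n = 5). Without Reh replicate 1 it was 3.88 log2 (adjusted p = 0.0399). The call ended only when the line Namalwa was left out (3.63 log2, adjusted p = 0.0629), among all lines and arrays left out in turn. In the order of line means, L540, L540Cy, L428, HDLM2, L1236 and KM-H2 followed each other from 11.40 to 10.44 with no neighbours that differed beyond the spread between arrays, and the step from KM-H2 to SU-DHL-4, of 2.06 log2, did (adjusted p = 0.017). SOCS1 was also the 1 gene of the 10 with no difference called among the 5 Hodgkin lines of origin (F test, adjusted p = 0.662). The widest pair there, KM-H2 minus L540, was -0.96 log2 with a 95% interval of -2.13 to 0.20. The SOCS1 spread behind these single-line tests included the Reh arrays, with an SD of 1.15. The other lines with 2 arrays had SDs of 0.03 to 0.31, so smaller differences among Hodgkin lines could be missed. Without Reh replicate 1 the F test did not call SOCS1 either.

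The SOCS1 promoter window of RefSeq (GRCh38.p14, chr16:11256155-11256454, minus strand, 250 bases before to 50 after the start) is shown as that of the gene with the smallest spread among the Hodgkin lines. Both spacings of the STAT motif were searched, TTCNNNGAA and the same ends with 4 free bases between them, and as neither occurs here the sequence is all in lower case:
SOCS1: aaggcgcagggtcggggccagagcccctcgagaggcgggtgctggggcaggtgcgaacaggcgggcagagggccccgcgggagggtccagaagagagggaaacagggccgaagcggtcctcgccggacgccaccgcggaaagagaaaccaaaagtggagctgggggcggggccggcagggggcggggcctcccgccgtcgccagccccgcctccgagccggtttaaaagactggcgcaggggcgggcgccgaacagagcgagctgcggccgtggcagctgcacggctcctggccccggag

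SOCS3, the feedback inhibitor best known from signalling through the interleukin 6 receptor chain gp130, was near the bottom of the scale in every non-Hodgkin array and graded among the Hodgkin lines. The non-Hodgkin arrays stood at 3.61 and 4.02 in Reh, 3.67 and 4.04 in Namalwa and 3.83 in SU-DHL-4. The Hodgkin arrays stood at 6.62 and 7.78 in KM-H2, 7.47 and 7.26 in L428, and 8.53 and 9.15 in L1236. They stood at 10.51 and 10.05 in HDLM2, 10.49 in L540 and 11.23 in L540Cy. With this brightest probe set no Hodgkin array reached down to a non-Hodgkin one, and the lines known as T cell derived held the top. The difference was 5.08 ± 0.89 log2 (SE, 5 lines against 3, adjusted p = 0.0484). In the order of means, HDLM2 stood above L1236 (1.44 log2, adjusted p = 0.0166), L1236 above L428 (1.48 log2, adjusted p = 0.0177) and KM-H2 above Namalwa (3.34 log2, adjusted p = 8.82e-05). The steps from L540Cy to L540, from L540 to HDLM2, from L428 to KM-H2 and between the 3 non-Hodgkin lines did not pass.

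The SOCS3 call was close to the threshold. It ended without the line L1236 (adjusted p = 0.102), HDLM2 (0.0896), L540 with its subline (0.0634), Reh (0.118), Namalwa (0.146) or SU-DHL-4 (0.155), and without the single arrays L428 replicate 1 (0.051), L1236 replicate 2 (0.0507), KM-H2 replicate 2 (0.0678), HDLM2 replicate 2 (0.0504), Reh replicate 1 (0.0576) or L540 (0.0567). The difference stayed between 4.59 and 5.50 log2 when lines or duplicate arrays were left out. With the mean of all 4 SOCS3 probe sets it was 1.70 log2 (adjusted p = 0.131).

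The probe sets of SOCS1 and of SOCS3 disagreed in size. Tested singly among all 41091 probe sets, of which 1.2% were called and 0.608% were higher in the Hodgkin lines, 3 of the 31 passed. For SOCS1 the brightest and the next brightest did, at 3.61 and 2.36 log2 (adjusted p = 0.0164 and 0.0127). The other SOCS1 probe sets differed by 0.46 and -0.04 log2 without passing, and the dimmest did not exceed 4.93 log2 on any array. For SOCS3 the brightest had 5.08 log2 (adjusted p = 0.0498), whereas the others, in falling order of brightness, had 1.36, 0.48 and -0.10 log2 without passing. Over 15 arrays these 3 correlated with the brightest at 0.88, 0.78 and 0.12, as a description. With the next brightest SOCS3 probe set the classes overlapped. Namalwa replicate 2 stood at 6.57 there, above KM-H2 at 5.94 and 6.24 and L428 at 6.3 and 6.07. The 3 CISH probe sets had 3.82, 4.18 and 3.69 log2 without passing, and the 2 dimmer ones correlated with the brightest at 0.99 or more over 15 arrays. With the dimmest CISH probe set the classes overlapped, as KM-H2 replicate 2 stood at 6.43 and Namalwa replicate 2 at 6.58. With the next brightest, KM-H2 stood at 7.3 and 7.11. The highest non-Hodgkin array there was Reh replicate 2 at 6.96 and the lowest Reh replicate 1 at 5.88. Of the 31 probe sets, 6 stayed under 6 log2 on all 15 arrays.

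**Figure D2:**
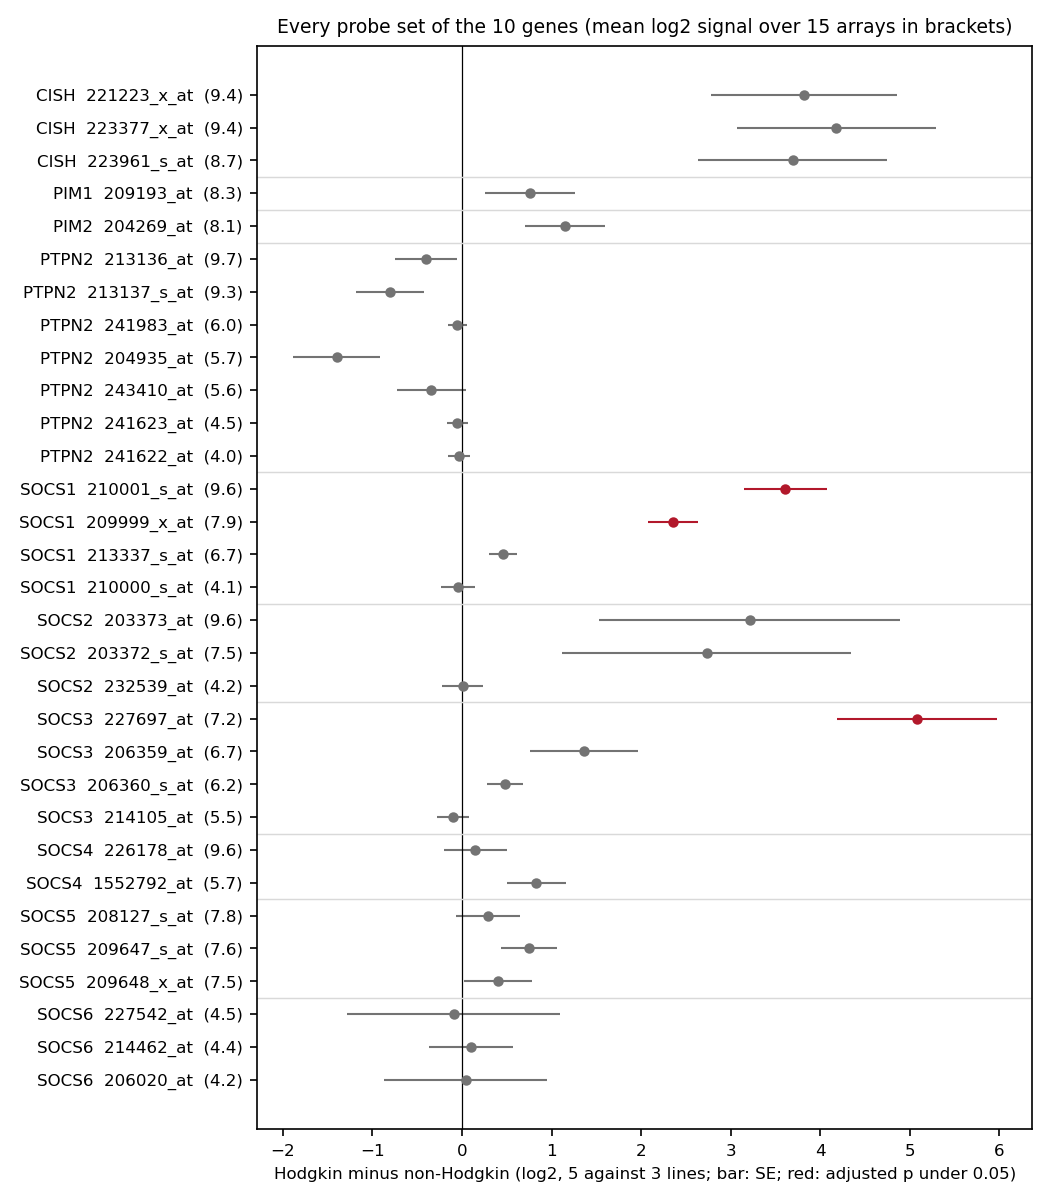
Hodgkin minus non-Hodgkin difference in log2 (x axis, point, with a bar of 1 SE, 5 lines against 3) for each of the 31 probe sets (y axis, with the mean log2 signal over 15 arrays in brackets), red where the adjusted p over all probe sets was under 0.05. The 3 probe sets in red lie between 2.36 and 5.08, the other SOCS1 and SOCS3 probe sets between -0.10 and 1.36, and the 3 CISH probe sets between 3.69 and 4.18.

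CISH encodes CIS, a SOCS family protein whose gene is a classical target of STAT5. Its promoter is shown because it is the single window among the members that holds a STAT motif. The RefSeq window (GRCh38.p14, chr3:50611725-50612024, minus strand) has the motif TTCNNNGAA, which reads the same on both strands, at 4 places that are printed in capitals:
CISH: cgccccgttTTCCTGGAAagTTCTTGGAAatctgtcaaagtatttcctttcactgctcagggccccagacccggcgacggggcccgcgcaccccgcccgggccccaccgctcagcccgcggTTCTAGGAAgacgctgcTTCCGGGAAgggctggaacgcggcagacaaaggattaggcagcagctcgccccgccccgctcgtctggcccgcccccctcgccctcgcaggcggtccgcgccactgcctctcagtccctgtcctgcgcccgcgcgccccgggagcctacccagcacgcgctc
The first bases of the 4 matches lie at -241, -230, -129 and -112 from the start of the gene. Of 35116 promoter windows of the same length, 7.66% hold this motif at least 1 time, and 7 windows (0.0199%) hold it at least 4 times. The spacing with 4 free bases is found in 6.44% of windows and not in that of CISH. Windows were given for 8 of the 10 genes, 9 windows in all with 2 for SOCS3, and no window of the other 7 genes held either motif. Sequence outside these windows, such as that between the 2 of SOCS3, was not searched. Motifs elsewhere at these genes therefore remain unknown here. A match is a run of letters and no evidence of binding, and no STAT binding was measured here.

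CISH was high in 5 of the 6 Hodgkin cell lines and low in KM-H2. HDLM2 stood at 12.02 and 12.39, L1236 at 11.53 and 11.95, L540 at 11.72, L540Cy at 11.07 and L428 at 10.24 and 10.81. KM-H2 stood at 7.39 and 7.32, next to Reh at 7.22 and 6.86, Namalwa at 6.91 and 6.54 and SU-DHL-4 at 6.72. With the brightest probe set the arrays of the classes did not overlap, but KM-H2 lay within 1 log2 of each non-Hodgkin array. KM-H2 exceeded Reh by 0.31 log2 (95% interval -0.25 to 0.87, adjusted p = 0.479) and Namalwa by 0.62 log2 (0.06 to 1.18, adjusted p = 0.0959). L428, the next Hodgkin line up, exceeded KM-H2 by 3.18 ± 0.25 log2 (SE, adjusted p = 1.16e-05). The difference between classes was 3.82 ± 1.05 log2 (SE, 5 lines against 3), with adjusted p = 0.161. The test was passed at 4.64 log2 when KM-H2 was left out (adjusted p = 0.00518) and with single arrays and the line as a random block (3.81 log2, adjusted p = 0.00916). With the same random block on the 12 numbered arrays alone it was not passed (3.57 log2, adjusted p = 0.0695, and 0.102 with the replicate block). For SOCS1, SOCS3 and CISH all 5 Hodgkin line means lay above all 3 non-Hodgkin means, which held for 5.17% of all genes.

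SOCS2, a regulator of growth hormone receptor signalling and a STAT5 target, divided the lines in another way. KM-H2 stood at 11.94 and 12.26 and Reh at 11.08 and 12.68. KM-H2 minus Reh was 0.22 log2 (adjusted p = 0.828), and -0.58 log2 without Reh replicate 1 (adjusted p = 0.195), so which of them was highest was not settled. L540Cy stood at 11.57, L540 at 11.11, HDLM2 at 10.68 and 11.26, L1236 at 10.15 and 9.99 and L428 at 8.09 and 8.49. Namalwa, at 4.75 and 4.91, and SU-DHL-4, at 5.31, were far below all of them. The classes overlapped through Reh, and the difference of 3.21 ± 1.69 log2 (SE, 5 lines against 3) did not pass (adjusted p = 0.45). Without the line Reh the difference was 5.48 log2, also without passing (adjusted p = 0.0727).

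The steps in the order of SOCS2 means that exceeded the spread between arrays were L1236 over L428 (1.78 log2, adjusted p = 0.0149) and L428 over SU-DHL-4 (2.98 log2, adjusted p = 0.00252). Reh exceeded Namalwa by 7.05 ± 0.42 log2 (SE, adjusted p = 4.3e-06), and by 7.85 log2 with Reh replicate 2 alone (adjusted p = 2.42e-07). KM-H2 thus had SOCS2 at 12.10 with the lowest CISH mean of the Hodgkin lines, at 7.35, and Reh had SOCS2 at 11.88 with SOCS1 at 6.12, SOCS3 at 3.81 and CISH at 7.04.

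**Figure D3:**
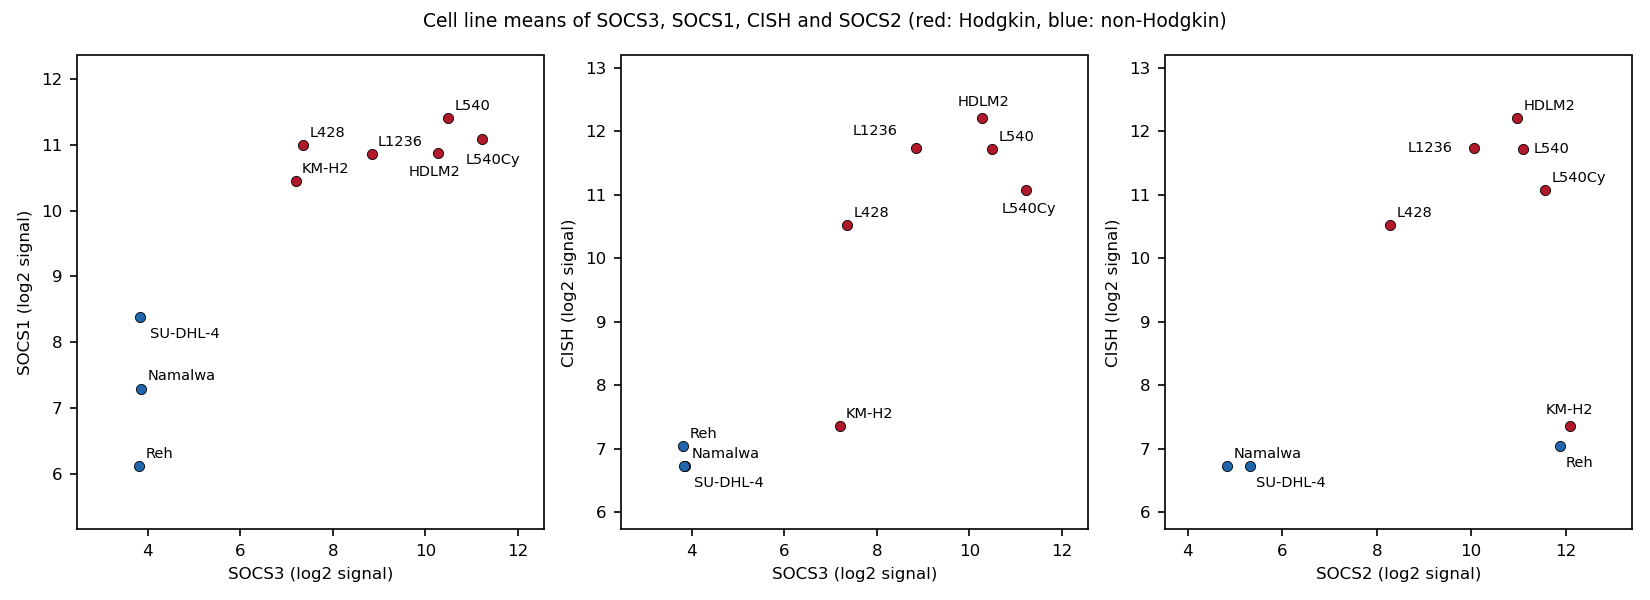
Cell line means (log2 signal on both axes, 1 point per cell line, Hodgkin in red and non-Hodgkin in blue) of SOCS1 against SOCS3, CISH against SOCS3 and CISH against SOCS2. KM-H2 lies with the non-Hodgkin lines for CISH at 7.35 and beside Reh for SOCS2 at 12.10 against 11.88.

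SOCS6, a SOCS protein studied mainly in receptor tyrosine kinase signalling, stood above the rest in 3 lines of both classes, with L428 still under 6 log2. Reh stood at 6.37 and 7.54, L1236 at 6.82 and 7.04 and L428 at 5.18 and 5.33. All arrays of KM-H2, HDLM2, L540, L540Cy, Namalwa and SU-DHL-4 lay between 3.13 and 3.47. L1236 exceeded L428 by 1.68 log2 (adjusted p = 0.00325) and L428 exceeded HDLM2 by 1.84 log2 (adjusted p = 0.00146). Reh and L1236 were not separated (-0.03 log2 for L1236 minus Reh, 95% interval -0.70 to 0.65). The classes did not differ by the test (-0.09 ± 1.20 log2, SE, 5 lines against 3, adjusted p = 0.981), and the sign of that small difference changed with the lines included. The other 2 SOCS6 probe sets correlated with the brightest at 0.88 and 0.96 over 15 arrays. On the first of these, L428 at 4.36 and 4.29 and Reh replicate 1 at 4.26 were no higher than L540 at 4.39. On the second, L428 stood at 4.04 and 4.24 and Reh at 4.84 and 6.71. The lines between 3.13 and 3.47 above stood at 3.15 to 3.5 there.

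SOCS4 and SOCS5 form a pair within the family with long amino-terminal regions. With their brightest probe sets they had the smallest ranges of means over the 8 lines of origin, 1.47 and 1.42 log2. SOCS4 ran from 9.11 to 10.11 in the Hodgkin arrays. It stood at 10.07 and 9.92 in Reh, 8.78 and 8.48 in Namalwa and 9.84 in SU-DHL-4. Namalwa was lowest, 0.50 log2 below L428 (adjusted p = 0.0341) and its difference from the mean of the other 7 lines of origin was -1.09 ± 0.11 log2 (SE, adjusted p = 8.42e-05). SOCS5 ran from 6.71 to 8.59 in the Hodgkin arrays and stood at 7.48 and 8.35 in Reh, 7.88 and 7.66 in Namalwa and 7.0 in SU-DHL-4, with no neighbours in its order of means separated and 4 of 36 pairs of lines called, where 20.2% of all genes by pairs were called. The other 9 genes had 15 to 29 of 36 pairs called, the most for SOCS3. The class differences were 0.15 ± 0.35 log2 for SOCS4 (SE, 95% interval -0.68 to 0.97) and 0.29 ± 0.37 log2 for SOCS5 (SE, -0.57 to 1.14), with adjusted p = 0.877 and 0.758. On the dimmer SOCS4 probe set Namalwa stood at 4.34 and 4.37 and L1236 at 6.0 and 7.06. The class difference there was 0.83 ± 0.33 log2 (SE) in the limma test of single probe sets, without passing (adjusted p = 0.316).

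PIM1, a kinase that supports survival and cell cycle entry, was highest in the lines known as T cell derived. L540 stood at 10.12, L540Cy at 9.22 and HDLM2 at 8.92 and 9.31. The B cell derived Hodgkin lines stood at 8.47 and 8.49 in KM-H2, 8.14 and 8.16 in L428 and 7.52 and 7.50 in L1236. The non-Hodgkin arrays stood at 7.95 and 8.39 in Reh, 7.26 and 7.16 in Namalwa and 8.09 in SU-DHL-4, so the classes overlapped. HDLM2 exceeded KM-H2 by 0.64 log2 (adjusted p = 0.0292), and L540 exceeded Namalwa by 2.91 ± 0.23 log2 (SE, adjusted p = 1.44e-05). The class difference was 0.76 ± 0.50 log2 (SE, 5 lines against 3, adjusted p = 0.543).

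PIM2, a related kinase with high levels in lymphoid cells, was at one level in most Hodgkin lines and lower in L428. L1236 stood at 8.94 and 8.84, KM-H2 at 8.97 and 8.77, HDLM2 at 8.88 and 8.37, L540 at 9.10 and L540Cy at 8.56. L428 stood at 6.91 and 7.16, like Reh at 7.13 and 6.93, SU-DHL-4 at 7.28 and Namalwa at 7.99 and 7.22. L428 minus Reh was 0.00 log2 with a 95% interval of -0.58 to 0.58. L428 lay below KM-H2 by -1.84 ± 0.26 log2 (SE, adjusted p = 0.000561). The class difference of 1.15 ± 0.45 log2 (SE, 5 lines against 3) did not pass (adjusted p = 0.308) and passed at 1.50 log2 without L428 (adjusted p = 0.0152).

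PTPN2, the phosphatase, had the lowest difference of the 10 genes, at -0.40 ± 0.35 log2 (SE, 5 lines against 3, 95% interval -1.22 to 0.42, adjusted p = 0.649). Its Hodgkin arrays ran from 8.76 in HDLM2 over a median of 9.59 to 10.55 in L540Cy. The non-Hodgkin arrays stood at 9.86 and 9.51 in Reh, 10.47 and 10.01 in Namalwa and 10.07 in SU-DHL-4, inside that range. HDLM2 lay below L540 by -1.45 ± 0.24 log2 (SE, adjusted p = 0.0027), although both are known as T cell derived. Its 7 probe sets had -1.40 to -0.03 log2 between the classes, and none passed.

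The second comparison asked which of the genes differ among the 5 Hodgkin lines of origin. It used all 15 arrays with 1 mean per cell line, where the 6 lines with 2 arrays gave the spread, which was also taken to hold for the 3 lines with 1 array. By the F test 9 of the 10 genes differed, all but SOCS1, beside 45.3% of all genes. The adjusted p ran from 1.18e-06 for CISH and 1.4e-05 for SOCS6 to 0.0032 for SOCS4 and 0.0303 for SOCS5. The call of SOCS4 ended with the mean of all probe sets and with the most variable one, and that of SOCS5 with the most variable probe set and without KM-H2 replicate 1 or 2, HDLM2 replicate 1 or L428 replicate 2. The range of means over 8 lines of origin was 7.27 log2 for SOCS2, 7.05 for SOCS3, 5.49 for CISH, 5.13 for SOCS1 and 3.78 for SOCS6, against 2.46 for PIM1, 1.86 for PIM2, 1.55 for PTPN2, 1.47 for SOCS4 and 1.42 for SOCS5.

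Each line of origin was then set against the mean of the other 7. L540 with its subline was higher for 7 of the 10 genes and lower for SOCS6, led by SOCS3 at 4.40 ± 0.28 log2 (SE, adjusted p = 2.43e-06), where 25.6% of all genes were called, 11.8% higher and 13.8% lower. HDLM2 was higher for 6 genes and lower for SOCS5, SOCS6 and PTPN2 (27% of all genes called, 14% higher and 13% lower). HDLM2 had the largest CISH difference of all lines, 3.42 ± 0.19 log2 (SE, adjusted p = 9.89e-07). L1236 was higher for 6 genes and lower for PIM1 (25% of all genes called, 14.4% and 10.6%), with CISH at 2.89 and SOCS6 at 2.83 log2.

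KM-H2 was higher for SOCS1, SOCS2 and PIM2 and lower for SOCS6 and CISH (28.1% of all genes called, 15.2% and 12.9%), with -2.13 log2 for CISH. L428 was higher for SOCS1, SOCS6 and CISH and lower for SOCS2, SOCS4, PIM2 and PTPN2 (23.7% of all genes called, 12% and 11.7%). SOCS3 did not pass in either of these 2 lines, at 0.22 log2 in KM-H2 and 0.41 log2 in L428.

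Namalwa was lower for 7 of the 10 genes and higher for PTPN2 (27.8% of all genes called, 16.5% lower and 11.3% higher), led by SOCS2 at -5.17 log2 and SOCS3 at -3.60 log2. SU-DHL-4 was lower for SOCS2, SOCS3, SOCS6 and CISH and higher for none (17.7% of all genes called, 9.72% lower and 8% higher). Reh was higher for SOCS2, SOCS4 and SOCS6 and lower for SOCS1, SOCS3, CISH and PIM2 (21.8% of all genes called, 11% and 10.8%), with -3.90 log2 for SOCS1 and 2.86 log2 for SOCS6. With Reh replicate 1 left out these 2 values were -4.71 and 3.45 log2, both called, and SOCS4, at 0.40 log2, was not (adjusted p = 0.108). In total 55 of the 80 comparisons of a gene and a line passed, where 17.7% to 28.1% of all genes were called per line. Each line also stands among the other 7 of every other line, so these comparisons are not separate results.

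**Figure D4:**
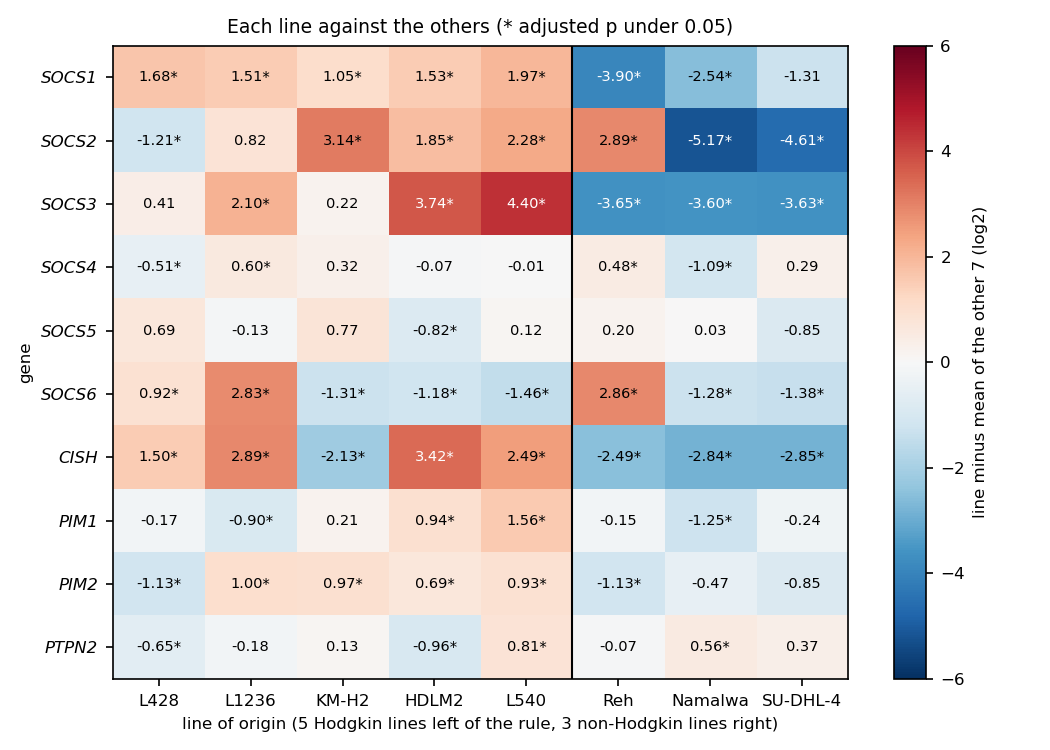
Difference in log2 between each line of origin (x axis, Hodgkin lines left of the black rule) and the mean of the other 7, for each of the 10 genes (y axis), in colour and digits, with a star where the adjusted p was under 0.05. SOCS1 is above 0 in the 5 Hodgkin lines and below 0 in the other 3, CISH is -2.13 in KM-H2, and SOCS2 and SOCS6 are above 0 in Reh.

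L540Cy was compared with L540, 1 array each. None of the 10 genes was called with limma, where 1.49% of all genes were, and 1 had an unadjusted p under 0.05. That gene was PIM1, at -0.90 ± 0.26 log2 (SE, adjusted p = 0.161) for L540Cy minus L540. SOCS3 and SOCS5 had 0.74 log2 each and CISH -0.64 log2 without passing.

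As a description, over 8 lines of origin that fall into 2 classes, the line means of SOCS3 correlated with those of CISH at 0.91 and with those of SOCS1 at 0.89, and SOCS1 with CISH at 0.80. Within the 5 Hodgkin lines the same pairs had 0.73, 0.66 and 0.73. SOCS2 and PIM2 had 0.51 over 8 lines and 0.86 within the Hodgkin lines, and SOCS6 and PIM1 had -0.40 and -0.88. Among 2795 genes with an SD of at least 1 log2 over the 8 lines, the 3 whose pattern was most like that of SOCS1 were TNFSF14, LOC105379499 and CCND2 (r = 0.976, 0.965 and 0.961). For CISH they were FUCA2, DNAJC18 and LINC00184 (0.988, 0.984 and 0.976), and for SOCS3 PRKAR1B-AS1, NCEH1 and PLAAT3 (0.985, 0.981 and 0.980). For SOCS2 they were CMTM3, PCCA and GAS1 (0.968, 0.961 and 0.957), and for SOCS6 NID2, ARHGAP32 and XKR4 (0.988, 0.966 and 0.953). An r over 0.95 was reached by 23 genes for SOCS3, 8 each for SOCS1 and CISH and 3 each for SOCS2 and SOCS6.

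Other genes of the pathway were taken from fixed lists, whose counts stand beside 0.759% of all genes higher, 0.612% lower and 14.2% at an unadjusted p under 0.05. Among STAT factors and JAK kinases 1 of 9 measured genes rose in the Hodgkin lines, 0 fell and 6 had an unadjusted p under 0.05 (median difference 1.99 log2). The gene was STAT5A, a STAT activated by interleukin 2 family cytokines, at 2.51 ± 0.38 log2 (SE, 5 lines against 3, adjusted p = 0.0273). STAT5A line means were 10.39 in L428 and 8.90 to 9.46 in the other Hodgkin lines, against 7.06 in Reh, 7.01 in SU-DHL-4 and 6.38 in Namalwa. Its means correlated over 8 lines with those of SOCS1 at 0.89, SOCS3 at 0.80 and CISH at 0.76, as a description. The r of STAT5A with the other members ran from -0.45 for PTPN2 to 0.51 for PIM1, with SOCS2 at 0.49. STAT3 had 0.82, 0.85 and 0.82 with SOCS1, SOCS3 and CISH, so such values were not particular to STAT5A. Over lines of 2 classes, these r also carry the difference between the classes. KM-H2, with CISH at 7.35, had STAT5A at 8.91, close to HDLM2 at 9.01 and L1236 at 8.90. JAK2 stood at 6.76 in KM-H2, 9.84 in HDLM2 and 9.48 in L1236, and at 7.40 in L540, where CISH stood at 11.72. STAT activity was not measured, and a link of these RNA levels to that of CISH was not tested.

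Of 24 cytokine receptors that signal through STATs, 2 rose, 0 fell and 22 did not pass (median 1.31 log2): IL2RB, the beta chain of the interleukin 2 and 15 receptors, by 5.11 ± 0.76 log2 (SE, adjusted p = 0.0273), and IL15RA by 2.74 ± 0.47 log2 (SE, adjusted p = 0.0447). IL2RB was at 12.40 in HDLM2, 12.49 in L540 and 12.47 in L540Cy, and at 9.47 to 10.72 in L1236, L428 and KM-H2. Of 15 cytokines 0 passed in limma and 3 had an unadjusted p under 0.05, against 14.2% of all genes (median 0.99 log2), with IL6 at 3.86 and IL15 at 3.56 log2. Without Reh replicate 1 the call of IL15RA ended (adjusted p = 0.0726).

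Of 25 other STAT target genes 6 rose and 0 fell (median 1.38 log2, 5 without Reh replicate 1), led by CCND2 (cyclin D2) at 8.42, BATF3 at 6.57 and LTA (lymphotoxin alpha) at 5.11 log2. LTA was the 1 that lost its call without that array (adjusted p = 0.0561). Of 13 other inhibitors of JAK-STAT signalling, 1 rose and 0 fell (median -0.09 log2): USP18, which restrains the interferon receptor, by 3.62 ± 0.63 log2 (SE, adjusted p = 0.047, and 0.0919 without Reh replicate 1). Of 11 partners in the SOCS box ubiquitin ligase 0 passed in limma and 3 had an unadjusted p under 0.05, against 14.2% of all genes (median -0.14 log2), with WSB2 at 2.56 and ASB13 at -2.14 log2. Of 15 substrates and partners of PIM kinases 0 passed in limma and 3 had an unadjusted p under 0.05, again against 14.2% (median 0.10 log2), with CDKN1B at 2.40 and FOXO1 at -2.15 log2. IL2RA, OSM, LTA, CCL17, CCL22, IL21R, BCL6 and MYC stand in more than a single list, so the lists are not independent.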

How the data were processed

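The authors deposited log2 signals per probe set made with RMA, per the submitters' processing notes. The software and its settings were not given in the sources used here. Of 54675 probe sets, 62 control probe sets, 1801 with several symbols and 11721 without a symbol in the platform annotation were left out, and 54 of the 41091 kept had no Entrez match in RefSeq and kept their symbol. The 10 genes, the lists and the tests were chosen with earlier results of these data known. The tool was limma 3.58.1 (lmFit, eBayes; R 4.3.3). Tests were two-sided, p-values were adjusted by Benjamini-Hochberg across the 19775 genes, and dim genes were kept. The second fit had 6 residual degrees of freedom. p-values of single lines measure the spread between arrays of a line, which the design text calls biological duplicates. Named were all 10 genes and, from each list, up to 3 called genes in each direction or else the 2 with the largest difference. Genes of like pattern were the 3 with the highest Pearson r. The number of arrays limits the precision. Both fits were tested on simulated data. Alternatives covered the subline, probe set choice, normalization, a dim filter at 6 log2, variance priors, block fits and left-out lines and arrays. The tests of each probe set and the removal of L540 alone were chosen after seeing the data. Promoter sequences are from RefSeq. Proteins were not compared here.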

Additional observations from a re-analysis of the deposited data

Results flagged for a closer look

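PIM2 in L428 was far from the other Hodgkin lines. Its line mean was 7.03 log2, and the nearest of the other 4 lines of origin was at 8.62, a gap of 0.854 of the whole range, above the 95% critical value of Dixon for 5 samples. Chance flags about 1 in 20 such groups, and 10 genes were examined. The 2 L428 arrays, at 6.91 and 7.16, lay close together.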

How the results depend on the processing

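The 2 calls between the classes became 1 with the mean of all probe sets and 1 without L540 (L540Cy kept), and ranged from 0 to 3 when lines or arrays were left out. For SOCS6 the probe set mean gave 0.02 log2, and lines or arrays left out gave -0.73 to 1.13 log2 and, for SOCS4, -0.28 to 0.40 log2, with neither called in any. Over all genes, 150 higher and 121 lower calls became 599 and 475 with the line as a random block, 233 and 191 with L540 and L540Cy as 2 lines, 68 and 79 without Namalwa and 71 and 103 without SU-DHL-4. Centring the arrays moved the median of all genes from -0.023 to -0.117 log2 and left SOCS1 and SOCS3 called. Replicate numbers were not taken as pairs, since the labels give them no meaning and deviations of same-numbered arrays correlated over 0.1 in 10 of 15 pairs of lines, not in all. The values were 0.25 to 0.36 among the Hodgkin lines, 0.14 to 0.22 between these and Reh, and -0.07 to 0.06 with Namalwa. In 5 of 6 lines the correlation of these deviations with another line that was largest in absolute size was positive. That is a weak hint of pairing from the data, not the design. With a replicate block, 9 genes passed the F test as before and 60 in place of 55 comparisons with the other 7 lines. In the 12 numbered arrays the class comparison gave 2 calls with and without the replicate block, and over all genes 328 higher and 243 lower with it against 416 and 275. The comparison of the subline had 0 calls in its alternatives. RMA gives no detection call, so levels under 6 log2 have no known distance to background.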
